A study of Mus musculus with 4 samples.

Results

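Runx1 and Runx2 encode RUNX transcription factors, and their loci were read here as 2 stretches of the mouse genome build mm9. The Runx1 interval was chromosome 16 from 92550000 to 92900000 (350 kb) and the Runx2 interval chromosome 17 from 44680000 to 45020000 (340 kb). All peaks overlapping an interval by at least 1 bp were taken, without regard to their strength. Peaks of the 4 lists that overlapped were merged, which gave 24 regions in the Runx1 interval and 11 in the Runx2 interval, or 35 of 83319 regions in the whole series. The study profiled open chromatin by ATAC-seq, in which a transposase inserts sequencing adapters into accessible DNA, in fresh, untreated adipose progenitors of C57BL/6 mice aged 16 weeks. The 2 groups were progenitors of visceral fat (VAT 1 and VAT 2) and of subcutaneous fat (SAT 1 and SAT 2), with 2 libraries each. The labels name no sort gate, sex or number of animals. Nothing in them ties the libraries to different animals, so that p-values measure only the spread between libraries, which may be technical. The labelled cell type could not be checked against marker genes, because no gene annotation of build mm9 was used.

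RUNX proteins bind DNA through the Runt domain, together with the partner subunit Cbfb, at the core sequence TGTGGT. Runx1 is required for the formation of blood stem cells in the embryo, and Runx2 is the factor that commits mesenchymal cells to bone formation and counters their differentiation into adipocytes. Both genes are known to be transcribed from a distal and a proximal promoter, which give proteins with different first residues. In the RefSeq gene order, Runx1 stands between the protein-coding genes Clic6 and Setd4, and Runx2 between Clic5 and Supt3. The order is by the lower coordinate of each gene only. Whether these neighbours overlap Runx1 or Runx2, or whether the intervals reach into them, was not determined. No region was assigned to a gene.

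The promoter windows of RefSeq (build GRCm38.p6, 250 bases before to 50 bases after a start) matched both genes, with 2 entries for Runx1 and 1 for Runx2. Their positions belong to another build than the peaks and cannot be set beside the peak positions. The 250 bases before each Runx1 start are shown because they differ in base composition, with capitals marking CG dinucleotides. Both lie on the minus strand, the distal one at chr16:92826075-92826324 and the proximal one at chr16:92697330-92697579 of GRCm38.p6.
Runx1 distal: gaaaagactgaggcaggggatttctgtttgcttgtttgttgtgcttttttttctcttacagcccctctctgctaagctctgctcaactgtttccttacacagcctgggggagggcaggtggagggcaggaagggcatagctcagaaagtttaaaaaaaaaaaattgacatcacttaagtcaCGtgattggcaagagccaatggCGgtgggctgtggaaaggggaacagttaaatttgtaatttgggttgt
Runx1 proximal: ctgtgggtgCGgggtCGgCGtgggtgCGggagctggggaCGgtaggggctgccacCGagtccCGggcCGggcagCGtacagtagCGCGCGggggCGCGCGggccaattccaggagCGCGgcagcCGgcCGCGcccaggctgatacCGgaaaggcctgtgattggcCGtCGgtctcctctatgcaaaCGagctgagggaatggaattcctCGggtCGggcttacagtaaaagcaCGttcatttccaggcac
The 300-base window of the proximal promoter was 69.0% G and C with 35 CG dinucleotides, a number reached by 7.0% of the 32851 windows of the table. The distal Runx1 window was 45.0% G and C with 2 CG dinucleotides, and the Runx2 window was 45.3% with 2 as well, against a median of 52.7% and 7 over all windows. The distal Runx1 window and the Runx2 window also share a run of 22 identical bases, shown here with the RUNX core (ACCACA, the reverse complement of TGTGGT) in capitals.
Shared run: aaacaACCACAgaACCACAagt
It begins at base 24 after the Runx1 start and at base 19 after the Runx2 start. As printed, the run was found in 0 promoter windows of other genes, and its reverse complement was not searched. The core was searched as TGTGGT and ACCACA, which covers both strands. The distal Runx1 window held 2 matches, both in the shared run. The Runx2 window held 3 matches, of which 2 lay in the run, and the proximal Runx1 window held 0. At least 1 match was present in 16.8% of all windows, at least 2 in 1.81% and at least 3 in 0.18%. A match is a description of the letters and not of binding.

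Each interval held 1 region that was open in all 4 libraries, and in every library the highest-scoring peak of the interval lay in it. Another region open in all 4 lay outside, within 50000 bp of the start of the Runx2 interval. At Runx1 the common region lay on chromosome 16 at 92697448 to 92697875 (428 bp). Its peak had a score of 161 in VAT 1, 379 in VAT 2, 214 in SAT 1 and 114 in SAT 2. The score is the authors' value per peak, its scale is not given, and it is read only as a percentile within its own list, where 100 is the strongest peak. The Runx1 peak stood at the percentile of 67.6 in VAT 1, 93.9 in VAT 2, 82.3 in SAT 1 and 64.7 in SAT 2. It was thus above the middle of every list, with its lowest percentile in the short list of SAT 2. A percentile does not stand for the same rank in lists of unlike length. Over all regions of the series open in all 4 libraries, the median of the lowest percentile was 52.7.

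The common region at Runx2 was wider and ranked high in every list. It lay on chromosome 17 at 44913706 to 44914677 (972 bp), against a median of 524 bp for the 19350 regions open in all libraries of the series. Scores there were 362 in VAT 1, 325 in VAT 2, 309 in SAT 1 and 166 in SAT 2. These put the peak at the percentiles of 93.7, 90.8, 92.8 and 82.5 in the same order of libraries. VAT 1 had a second, weaker peak in the region, with a score of 62. The width of the peak differed between libraries, with 948 bp in VAT 2, 518 bp in SAT 1 and 278 bp in SAT 2, while the 2 peaks of VAT 1 covered 793 bp. SAT 2 had its only peak of the Runx2 interval in this region. When a peak had to cover at least 50% of a region to count, the region was no longer open in all libraries.

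Around the common region, Runx1 carried a cluster of regions and Runx2 did not. The share of common regions of the series with such a cluster was not computed. At Runx1, 4 regions less than 1000 bp apart lay within 2113 bp, from 92697002 to 92699114. They held 11 of the 37 Runx1 peaks, with 3 each in VAT 1, VAT 2 and SAT 1 and 2 in SAT 2. The first of them, at 92697002 to 92697128, had peaks in VAT 1, VAT 2 and SAT 2 with scores of 90, 66 and 77. The last, at 92698888 to 92699114, had scores of 57 in VAT 1, 109 in VAT 2 and 82 in SAT 1. Between the common and the last region, SAT 1 alone had a weak peak with a score of 33. At Runx2 the nearest other region lay 40179 bp away.

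**Figure D1:**
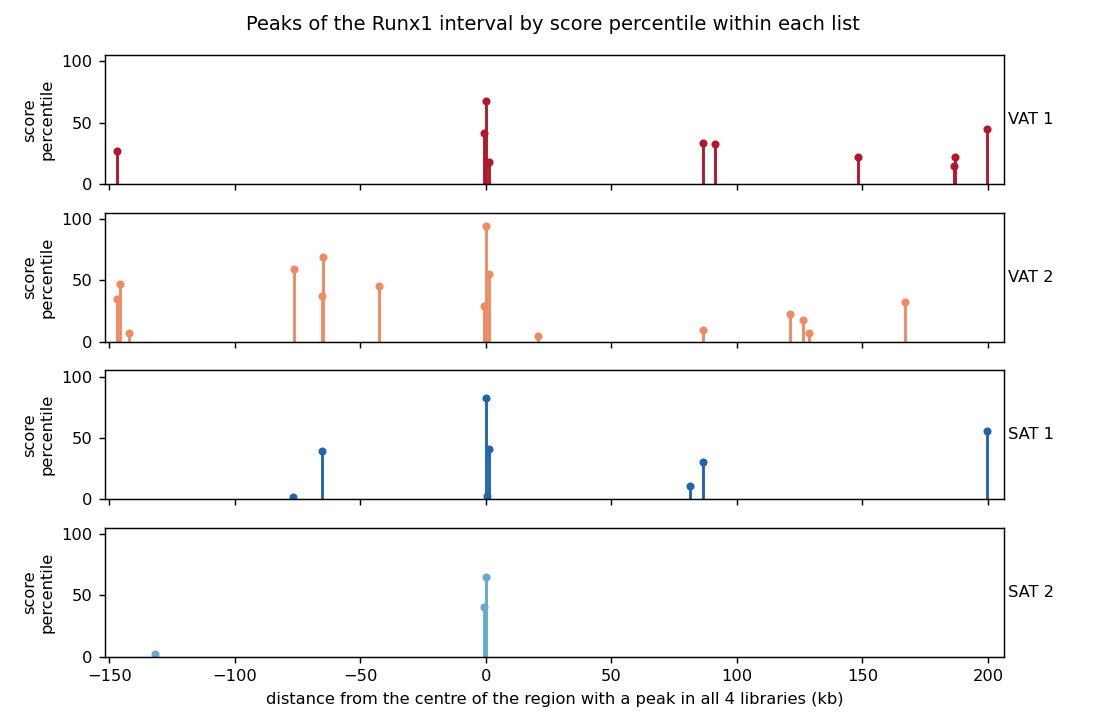
Peaks of the Runx1 interval in VAT 1, VAT 2, SAT 1 and SAT 2 (top to bottom). The horizontal axis is the distance in kb from the centre of the region open in all 4 libraries, and the height of each line is the score percentile of the peak within its own list. The tallest line of every library stands at 0, and 9 of the 16 VAT 2 peaks lie in regions with no peak in the other libraries.

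The number of peaks at Runx1 was higher in both visceral than in both subcutaneous libraries. The interval held 10 peaks in VAT 1 and 16 in VAT 2, against 8 in SAT 1 and 3 in SAT 2. The mean was 13.0 ± 4.24 in visceral and 5.5 ± 3.54 in subcutaneous progenitors (SD, n = 2 each), a difference of 7.5 peaks with p = 0.333 in a two-sided exact permutation test. This p is the smallest that 2 libraries against 2 allow. Without VAT 2 the difference was 4.5 peaks. In windows of 350 kb over the whole genome, both visceral lists held more peaks than both subcutaneous lists in 22% of the 6397 windows with a region, so this order is common.

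The lists differ in length, with 56907 peaks in VAT 1, 62279 in VAT 2, 56823 in SAT 1 and 22845 in SAT 2, and the read depth behind them is unknown. Per 10000 peaks of its list, the Runx1 interval held 1.76 in VAT 1 (95% Clopper-Pearson interval 0.843 to 3.23) and 2.57 in VAT 2 (1.47 to 4.17). It held 1.41 in SAT 1 (0.608 to 2.77) and 1.31 in SAT 2 (0.271 to 3.84). The groups did not overlap, as in 11.8% of the windows in this direction and 14.6% in the other, but the counting intervals of all 4 libraries did. The mean was 2.16 ± 0.574 in visceral and 1.36 ± 0.0670 in subcutaneous progenitors (SD, n = 2 each), a difference of 0.803 with p = 0.333 in the same exact permutation test. It was 0.397 without VAT 2 and 1.21 without VAT 1. With every list restricted to its 22845 highest-scoring peaks, which leaves the SAT 2 list whole, the direction was lost. The interval then held 1 peak in VAT 1 and 2 in VAT 2, against 1 in SAT 1 and 3 in SAT 2. In the top 50% of each list, the difference kept its sign, at 1 peak and 0.0283 per 10000 list peaks, against 0.803 with the full lists.

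At Runx2 the depots overlapped. The interval held 9 peaks in VAT 1 and 4 in VAT 2, against 10 in SAT 1 and 1 in SAT 2. The mean was 6.5 ± 3.54 in visceral and 5.5 ± 6.36 in subcutaneous progenitors (SD, n = 2 each), a difference of 1 peak, well within the spread of the libraries (two-sided exact permutation test, p = 1). Per 10000 list peaks, the values were 1.58 in VAT 1 (0.723 to 3.0) and 0.642 in VAT 2 (0.175 to 1.64). They were 1.76 in SAT 1 (0.844 to 3.24) and 0.438 in SAT 2 (0.0111 to 2.44). The depots overlapped on this scale too. Both visceral lists stood above both subcutaneous ones in 11.7% of the windows of 340 kb and below them in 14.4%, so most windows showed neither order. By peak number, both visceral lists stood above in 22.1% of these windows. Both libraries numbered 1 stood above both numbered 2 on either scale, but the counting intervals of all libraries overlapped. The share of windows with this order was not computed, so the order cannot be called particular to Runx2. SAT 2, numbered 2, also had the shortest list. The sign of the depot difference rested on single libraries, since it was -1.5 peaks without VAT 1 and -3.5 peaks without SAT 2.

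**Figure D2:**
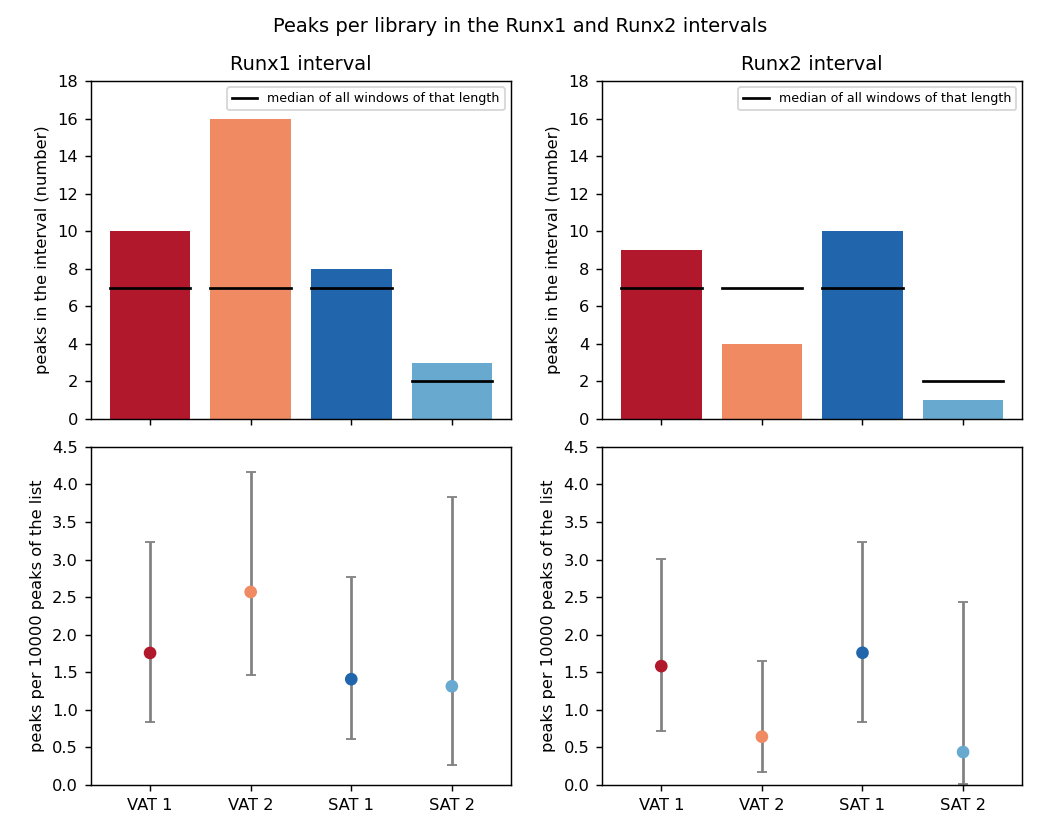
Peaks in the Runx1 (left) and Runx2 (right) intervals for VAT 1, VAT 2, SAT 1 and SAT 2. Upper panels show the number of peaks, with black lines for the median over all genome windows of the same length that hold a region, and lower panels show peaks per 10000 peaks of the list with 95% Clopper-Pearson intervals. VAT 2 holds 16 peaks at Runx1 and 4 at Runx2, on either side of its median of 7.

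Set beside windows of the same length over the genome, the Runx1 interval was rich in merged regions and the Runx2 interval was average. Runx1 held 24 regions, against a median of 10 (quartiles 4 and 20) in windows of 350 kb, and 82.2% of windows held fewer. Runx2 held 11 regions, against a median of 10 (quartiles 4 and 19) in 6566 windows of 340 kb. Counted by library, the Runx1 peaks passed the upper quartile of windows in VAT 2 only, with 16 against 15 and a median of 7. In VAT 1 and SAT 1 the 10 and 8 peaks lay between medians of 7 and upper quartiles of 14. In SAT 2 the 3 peaks lay between a median of 2 and an upper quartile of 5. Per 100 kb, Runx1 held 2.86 peaks in VAT 1, 4.57 in VAT 2, 2.29 in SAT 1 and 0.857 in SAT 2. Runx2 held 2.65, 1.18, 2.94 and 0.294 peaks per 100 kb in the same order of libraries. Runx1 was above Runx2 in 3 of the 4 libraries, by 0.878 ± 1.75 peaks per 100 kb on average (SD over libraries), which a two-sided exact paired permutation test did not separate from 0 (p = 0.5, smallest possible 0.125). The mean rested on VAT 2, and without this library it was 0.0392.

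Peaks of the Runx1 interval ranked mostly below the middle of their lists. Their median percentile was 29.9 over 10 peaks in VAT 1, 34.0 over 16 in VAT 2, 35.0 over 8 in SAT 1 and 40.7 over 3 in SAT 2. At Runx2 it was 61.8 over 9 peaks in VAT 1, 41.0 over 4 in VAT 2 and 41.8 over 10 in SAT 1, and the single SAT 2 peak stood at 82.5. At or above the percentile of 50 were 1 Runx1 and 7 Runx2 peaks in VAT 1, 4 and 1 in VAT 2, 2 and 5 in SAT 1, and 1 and 1 in SAT 2. The gap was wide in VAT 1, and no test was made of this difference. Over all libraries, to which the loci contribute unequally, the median percentile of the 37 Runx1 peaks was 32.8, and 8 of them reached the percentile of 50 and 2 that of 80. The 24 Runx2 peaks had a median of 53.5, with 14 at or above 50 and 5 at or above 80. Over all 198854 peaks of the series the median is 50.5 by construction, with 100351 at or above 50 and 39755 at or above 80. With lists of equal length, Runx1 held 1 peak in VAT 1, 2 in VAT 2, 1 in SAT 1 and 3 in SAT 2, and Runx2 held 5, 1, 3 and 1 in the same order of libraries. Runx2 was thus above Runx1 in VAT 1 and SAT 1 and below it in VAT 2 and SAT 2. The mean of Runx1 minus Runx2 was then -0.235 peaks per 100 kb (two-sided exact paired permutation test, p = 0.625), against 0.878 with the full lists.

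Most Runx1 regions were seen in a single library. They numbered 16 of 24, or 66.7% (95% interval by Clopper-Pearson 44.7% to 84.4%), while the share among all merged regions was 36.4%. VAT 2 alone gave 9 of them, VAT 1 gave 4, SAT 1 gave 2 and SAT 2 gave 1. The VAT 2 part of 56.2% is close to the 53.9% it had of all single-library regions of the series. The strongest of these, on chromosome 16 at 92632701 to 92632840, had a score of 154 in VAT 2, the percentile of 69.3. It lay 87 bp from a region at 92632494 to 92632613 that had peaks in VAT 2 (score 78) and SAT 1 (score 81). The other 15 ranked lower, between the percentiles of 2.2 and 46.8 of their lists. Single-library regions of Runx1 were narrow, with a median of 127.5 bp, as were those of the whole series (130 bp). Regions open in all libraries were 1 of 24, or 4.17% (0.105% to 21.1%), against 23.2% of all merged regions. Regions are not replicates, and the intervals cover counting error only.

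Few Runx1 regions followed the depots, as was the case over the whole series. The only region with a peak in both visceral and in neither subcutaneous library lay on chromosome 16 at 92550596 to 92550785, close to the border of the interval. Its peak scored 70 in VAT 1 and 72 in VAT 2. Both peaks were weak, at the percentiles of 27.0 and 35.2. This was 1 of 24 regions, or 4.17% (0.105% to 21.1%), close to the 4.6% of all merged regions with this pattern. No Runx1 region had peaks in both subcutaneous libraries only, and 0 of 24 allows a share of up to 12.5% by the limit of 3 counts (14.2% by Clopper-Pearson), against 0.11% of all regions. Another 2 regions had peaks in VAT 2 and SAT 1 only, or 8.33% (1.03% to 27.0%), against 4.93% of all merged regions. One of them is the neighbour of the VAT 2 region given above, and the other, at 92620879 to 92621207, had scores of 119 in VAT 2 and 30 in SAT 1. The remaining region open in every library except SAT 2 lay 86.35 kb beyond the common region, at 92783831 to 92784194, with scores of 79 in VAT 1, 43 in VAT 2 and 70 in SAT 1. This pattern was found in 2 of 24 Runx1 regions, or 8.33% (1.03% to 27.0%), against 19.45% of all merged regions.

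At Runx2, 0 of 11 regions were open in both libraries of 1 depot only. This allows a share of up to 27.3% for either depot by the limit of 3 counts (28.5% by Clopper-Pearson), against the same 4.6% and 0.11%. VAT 1 and SAT 1 had peaks in the same 7 regions, out of 8 in VAT 1 (87.5%) and 10 in SAT 1 (70%). Over all merged regions these lists shared 79.2% and 79.7% of their regions, so that the Runx2 shares lay near those of the series. VAT 2 had peaks in 4 regions, all of which were also open in VAT 1 and SAT 1. In addition to the common region these were chromosome 17 at 44735003 to 44735505, at 44755157 to 44755464 and at 44872857 to 44873526. The first had scores of 115 in VAT 1, 70 in VAT 2 and 72 in SAT 1. The second had scores of 140 in VAT 1, 70 in VAT 2 and 109 in SAT 1, and the third had 141, 98 and 71. All 3 lacked a peak in SAT 2, as did 16206 (45.6%) of the 35556 merged regions of the series with peaks in VAT 1, VAT 2 and SAT 1.

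Peaks in both libraries numbered 1 and in neither numbered 2 were found in 3 of 11 Runx2 regions, or 27.3% (6.02% to 61.0%), against 9.37% of all merged regions. For 11 regions the counting interval includes the share of the whole series. The pair at the start of the interval lay 1169 bp apart. At 44682392 to 44682638 the scores were 169 in VAT 1 and 137 in SAT 1, and at 44683808 to 44684018 they were 148 and 242. The SAT 1 peak of the second stood at the percentile of 86.4, the highest of any peak at these loci outside the common regions. The third region, at 44846950 to 44847107, had scores of 119 in VAT 1 and 100 in SAT 1. At Runx1 a single region, at 92897145 to 92897703, had this pattern, with scores of 98 in VAT 1 and 110 in SAT 1. No region of either locus had peaks in both libraries numbered 2 only, against 0.652% of all merged regions. The remaining 4 regions of Runx2 were seen in 1 library each, 3 in SAT 1 and 1 in VAT 1, at percentiles of 3.7 to 33.6.

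**Figure D3:**
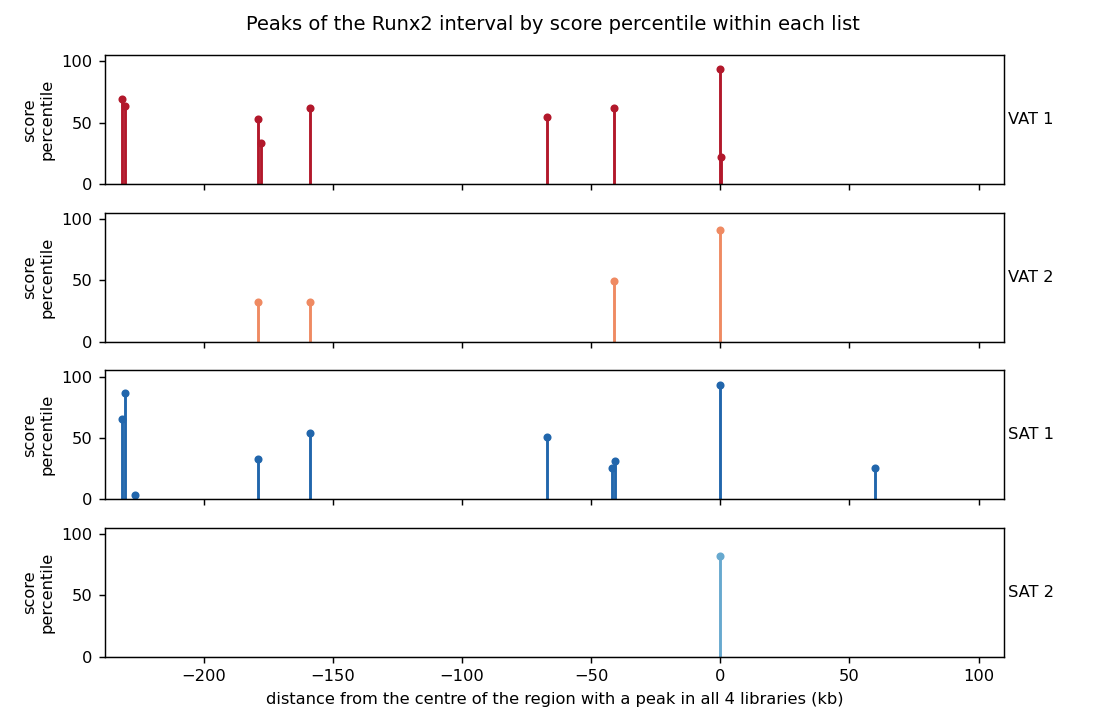
Peaks of the Runx2 interval in VAT 1, VAT 2, SAT 1 and SAT 2 (top to bottom), with the distance in kb from the centre of the region open in all 4 libraries on the horizontal axis and the score percentile within each list as height. VAT 1 and SAT 1 show peaks at the same 7 places, VAT 2 at 4 of these and SAT 2 only at 0.

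Regions seen in more than 1 library were 8 of 24 at Runx1, or 33.3% (4 with peaks in 2 libraries, 3 in 3 and 1 in 4). At Runx2 they were 7 of 11, or 63.6% (3, 3 and 1), which equals the 63.6% of all merged regions. VAT 1 and VAT 2 shared 5 regions at Runx1, which was 50% of those of VAT 1 and 31.2% of those of VAT 2. They shared 4 at Runx2, or 50% of those of VAT 1 and 100% of those of VAT 2. Over all merged regions these lists shared 72.3% of the VAT 1 and 65% of the VAT 2 regions. VAT 1 and SAT 1 shared 4 regions at Runx1, or 40% of those of VAT 1 and 50% of those of SAT 1, below their 79.2% and 79.7% over all regions. These differences were not tested. Without a detection limit for these lists, the absence of a peak is not evidence of closed chromatin.

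**Figure D4:**
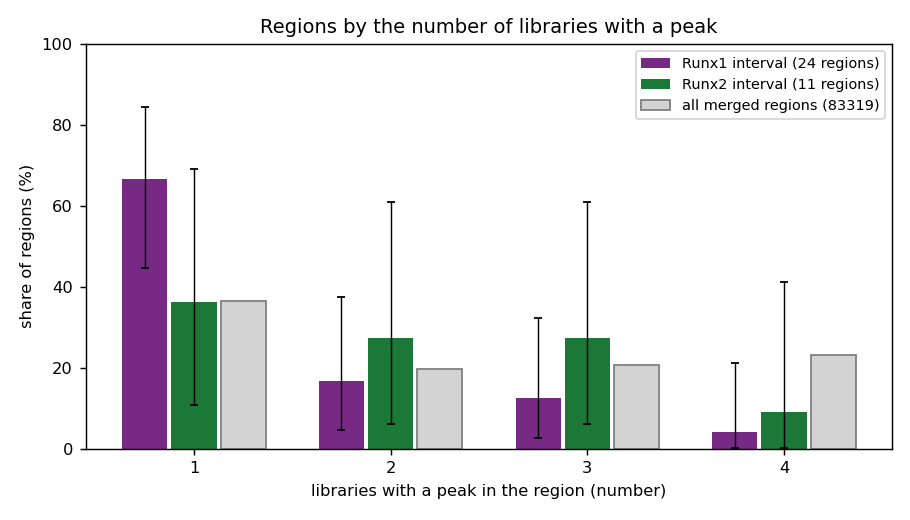
Share of regions (%) by the number of libraries with a peak, for the Runx1 interval, the Runx2 interval and all merged regions. Black lines are 95% intervals by Clopper-Pearson for the 2 loci. Regions seen in 1 library make up 66.7% at Runx1, 36.4% at Runx2 and 36.4% of all regions.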

How the data were processed

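ATAC-seq peak lists of 4 libraries, 2 of visceral and 2 of subcutaneous adipose progenitors, were analysed, with groups and replicate numbers from the sample titles. The submitters' processing notes name Bowtie2, MACS2 and build mm9. Their versions and options, and whether duplicates, read-end shifts or repeats were dealt with, are not given in the sources used. The authors deposited 1 list per library, not pooled, with positions and a score in column 5, a whole number of 20 or more of unstated scale, read here only as a rank inside its own list. The lists hold no reads, so depth is unknown.

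Peaks overlapping by at least 1 bp were merged over the whole genome before the intervals were read. Percentiles are mean ranks within a list. Background windows tile the genome at the length of each interval, counted by peak or region centre where they hold a region. Positions are 1-based on mm9. Counts per library were compared with exact permutation tests, and no p was computed over regions. The named regions were, per locus, those open in all libraries, the strongest peak per library, and those in both libraries of 1 depot or 1 replicate number only. Further regions are given to account for all members and were chosen after their values were seen. The members and this rule were chosen with earlier results of these data known. Promoter sequences came from RefSeq (GRCm38.p6), and coordinates were not converted between builds. Merging was tested on simulated data and checked against bedtools 2.31.1. Python 3.11.15, numpy 2.4.6, pandas 2.3.3, scipy 1.17.1 and matplotlib 3.10.9 were used. Alternatives were equal-length lists, the top 50% of each list, 50% coverage of a region, intervals extended by 50000 bp at each end, a replicate block and each library left out.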

Additional observations from a re-analysis of the deposited data

How the results depend on the processing

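Of 87 recomputed values, 60 kept their direction, or stayed within 1.5 times for a count, 9 reversed and 18 moved. The 60 include the differences with a replicate block, which changes only p, and counts of 0 that stayed at 0. They are thus no measure of robustness. With equal-length lists the Runx1 depot difference was -0.5 peaks and -0.219 per 10000 list peaks, Runx1 minus Runx2 was -0.235 peaks per 100 kb, and 0 Runx1 regions were in both visceral libraries only. In the top 50% of each list these last 2 values were -0.458 and 0. The top 50% drops the weaker peaks of every list by construction. Equal length keeps the SAT 2 list whole and drops the weaker peaks of the other lists. The lowest scores kept were 134 in VAT 1, 131 in VAT 2 and 120 in SAT 1, against 20 in SAT 2. With 50% coverage, Runx2 had 0 regions open in all libraries and 1 in both visceral libraries only. With intervals 50000 bp longer at each end, the Runx2 depot difference was -0.0377 per 10000 list peaks, 2 Runx2 regions were open in all libraries and 2 Runx1 regions were in both visceral libraries only.

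Leaving out 1 library gave Runx2 depot differences of -3.5 to 5.5 peaks and -0.648 to 0.674 per 10000 list peaks, negative without VAT 1 (-1.5 and -0.457) or without SAT 2. For Runx1 they were 4.5 to 10.5 peaks, lowest without VAT 2, and 0.397 to 1.21 per 10000. Runx1 minus Runx2 was 0.0392 (without VAT 2) to 1.39 peaks per 100 kb. Regions open in all libraries were 1 to 3 for Runx1 and 1 to 4 for Runx2, both highest without SAT 2. Regions in both visceral libraries only were 2 to 10 for Runx1, highest without VAT 1, and 0 to 3 for Runx2. Regions in both subcutaneous libraries only were 0 to 2 for Runx1 and 0 to 3 for Runx2. These counts rise by construction, since fewer libraries must share or lack a peak.

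The labels do not say what the replicate numbers mark, and there are only 2 pairs. With a replicate block the Runx1 difference of 7.5 peaks had p = 0.5 in an exact permutation within numbers, the smallest it allows, and the Runx2 difference of 1 peak had p = 1. The differences were 2 peaks for number 1 and 13 for number 2 at Runx1, and -1 and 3 at Runx2. Deviations of same-numbered libraries from their depot means correlated at 0.176 over 6397 windows, given as a description.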

Other observations

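The regions nearest to the borders of the intervals lay outside the comparisons. Beyond the start of the Runx1 interval the nearest was 5232 bp away, with a peak in VAT 2 only (score 79), and beyond its end the nearest was 5895 bp away, again in VAT 2 only (score 61). Beyond the start of the Runx2 interval it was 19996 bp away, in VAT 1 only (score 23). Beyond the end of that interval it was 53577 bp away, with scores of 62 in VAT 1 and 130 in SAT 1. Within 50000 bp of the start of the Runx2 interval there was 1 region open in all 4 libraries, and within 50000 bp of its end there were 0 regions.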
